A study of Mus musculus with 22 samples.

Results

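The Myc network genes examined here are Myc, Mycn, Mycl, Max, Mxd1, Mxd3, Mxd4 and Mnt, 8 of the 55487 genes listed in both deposited expression tables. They were found by matching the Ensembl identifiers of the tables to gene symbols of the GENCODE M21 annotation (GRCm38), and all 8, each protein-coding, matched and passed the filter on low values in both tables. The proteins of this network bind DNA as pairs. The 3 Myc proteins (c-Myc, N-Myc and L-Myc) each pair with Max and raise transcription of genes for growth, ribosome production and metabolism. The Mxd proteins and Mnt also pair with Max, recruit Sin3 corepressors and lower transcription at the same kind of site, an E-box with the core letters CACGTG. In mouse embryonic stem cells c-Myc and N-Myc are known to support self-renewal.

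Poly(A) RNA was sequenced from mouse embryonic stem cells of a Dux-/- line, in which the gene for the double-homeodomain factor DUX is knocked out. DUX is known for switching on genes of the early cleavage embryo. Cells were held in 2iLIF medium, given 24 h to recover after plating and then 0.25 ug/mL doxycycline for 12 h, which induced mCherry, a red fluorescent protein, alone (mCherry group) or joined to DUX (FL) or a DUX derivative. All groups share the knockout, the medium and the doxycycline. The derivatives are named as in the labels, C3+14, C1C3a, C1C3b, C1C3c and C1+14 in the chimera table and C12345delt14, deltC12345+14 and deltC12345delt14 in the deletion table. The labels do not spell out C1 to C5, 14, a, b or c, nor whether a line is 1 clone. The series has 22 samples in 11 groups, and the 20 libraries used here fall into 10 groups of 2. The group C3delt14 was not analysed here. The labels do not say that replicates came from separate cultures, so p-values measure only the spread between these samples, which may be technical. In bulk RNA, fewer cells of a type and less RNA per cell cannot be told apart.

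Library totals ran from 21059953 to 40448890 reads, and 1 read was worth between 0.620 and 1.81 normalised reads. The 2 FL libraries appear in both tables with the same reads (0 genes differed), but the tables were scaled separately, so groups were tested only within a table. All 8 embryonic stem cell markers examined were above 3 reads in every library. Their summed level was between 70484 and 70815 normalised reads in mCherry and between 22736 and 53072 in the constructs of the chimera table. The summed level of 6 markers of 2-cell-like cells was between 725112 and 1355140 in FL, 724970 and 792251 in C3+14, 323958 and 476214 in C1C3a, 13384 and 18930 in C1C3b, 823 and 897 in C1C3c, at most 10.96 in C1+14 and at most 0.858 in mCherry, where 0 of 6 were above 3 reads. Summed fibroblast markers were between 46.8 and 55.8 in mCherry and between 27.1 and 161 in the constructs of that table. They were highest in C1C3b, at 161 in both libraries, with 6 of 6 markers above 3 reads against 1 of 6 in mCherry. C1C3b also had the lowest embryonic stem cell sum, between 22736 and 24902.5. Summed primitive endoderm markers were between 68.6 and 78.9 in mCherry and between 92.8 and 648 in its constructs. Summed trophectoderm markers were between 589 and 606 in mCherry and between 398 and 1044 in the constructs, and summed neural markers between 2524 and 2731 and between 375 and 2547. Processed pseudogenes took between 4.06% and 4.13% of reads in mCherry and between 5.72% and 8.29% in the constructs of that table. The part of these differences in the levels below was not tested. Another scaling moved the median of all genes by between -0.48 and 0.32 (quantile), between -0.19 and 0.12 (TMM) or between -1.08 and 1.19 (total reads) on the log2 scale over the comparisons. Changes are given on the deposited scaling unless stated.

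Mycn (ENSMUSG00000037169, chromosome 12, 12936093 to 12941914, minus strand, GRCm38) codes for N-Myc. It had 2158 and 2290.4 normalised reads in mCherry, 875 and 657 in C1+14, 597 and 534 in C1C3a, 457 and 481 in C3+14, 396 and 318 in C1C3c, 279 and 314.5 in C1C3b, and 109 and 201 in FL. The libraries of no 2 groups overlapped in any of the 21 pairs of groups, though C1C3c at 318 and C1C3b at 314.5 nearly met. Such non-overlap was common, also beside the members below. Against mCherry, between 69.2% and 86.8% of all genes tested did not overlap, depending on the construct. The share was not counted for the other pairs of this table. Mycn fell against mCherry in all 6 constructs, on the log2 scale by 3.90 in FL (adjusted p 1.81e-08 by limma, SE 0.24), 2.90 in C1C3b, 2.64 in C1C3c, 2.24 in C3+14, 1.98 in C1C3a and 1.55 in C1+14 (SE 0.24 in each; largest limma adjusted p 0.000450). A gene was called, here and below, at a limma adjusted p under 0.05 (Benjamini-Hochberg over all genes) with at least a 2-fold difference. Of the 21 pairs of groups, 12 were called for Mycn. Neighbours in the order of levels differed by less than 2-fold, apart from mCherry and C1+14.

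Myc (ENSMUSG00000022346, chromosome 15, 61985391 to 61990374, plus strand) codes for c-Myc. Its level was 263 and 259 normalised reads in mCherry. It was 102 and 112 in C3+14, 63.1 and 119 in C1C3b, 47.6 and 87.8 in C1C3a, 46.0 and 69.7 in C1C3c, and 50.4 and 47.7 in C1+14. In FL it was 23.6 and 4.76, which is 16 and 4 reads. All construct libraries were below both mCherry libraries, FL was below all others, and the 5 groups between them overlapped with at least 1 neighbour. Against mCherry Myc fell by 4.46 on the log2 scale in FL (adjusted p 1.42e-05 by limma, SE 0.55), 2.39 in C1+14 (0.00575), 2.18 in C1C3c (0.00610), 2.00 in C1C3a (0.00675) and 1.58 in C1C3b (0.0249). Its call in C1C3a was lost without replicate 1 of C1C3a (limma adjusted p 0.0709), and in C1C3b without replicate 1 of C1C3b (0.185) or either mCherry library (0.0885 and 0.0856). In C3+14 the log2 difference of -1.28 was not called (limma adjusted p 0.0590), while it was called by edgeR and DESeq2 on the recovered reads (adjusted p 0.0138 and 0.00875) and by limma under TMM (0.0456), quantile (0.0476) and total-read scaling (0.00280), with a pseudocount of 8 (0.0175) and with only the 2 groups fitted (0.000685). FL differed from C1+14, its nearest neighbour in level, with a limma adjusted p of 0.00610.

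Mycl (ENSMUSG00000028654, chromosome 4, 122995652 to 123002485, plus strand) codes for L-Myc. It stood at 430.2 and 418 normalised reads in mCherry and 295 and 389 in C1+14. It then stood at 164 and 107 in C1C3c, 79.8 and 136 in C1C3b, 53.0 and 156 in FL, 77.1 and 92.3 in C3+14, and 77.5 and 62.3 in C1C3a. These 5 groups overlapped with their neighbours and lay below C1+14 and mCherry. Mycl fell against mCherry by 2.59 on the log2 scale in C1C3a (adjusted p 0.000131 by limma, SE 0.42), 2.32 in C3+14, 2.21 in FL, 2.01 in C1C3b and 1.67 in C1C3c (limma adjusted p between 0.000329 and 0.00566), and the call in C1C3c was lost without replicate 2 of that group (0.0613). In C1+14 the difference of -0.32 was not called (limma adjusted p 0.624).

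Max (ENSMUSG00000059436, chromosome 12, 76937269 to 76962201, minus strand) codes for the partner that all the other members share. Its libraries formed a high and a low set. The high set held mCherry with 1861 and 1952, C1+14 with 1897 and 1796, and C1C3c with 1563 and 1775 normalised reads. The low set held C1C3b with 707 and 752, C1C3a with 638 and 578, FL with 467 and 581, and C3+14 with 489 and 510.2. No library of one set reached the other. Max fell against mCherry by 1.93 on the log2 scale in C3+14, 1.87 in FL, 1.65 in C1C3a and 1.39 in C1C3b (SE 0.13 each, largest limma adjusted p 1.93e-06). The differences of -0.19 in C1C3c and -0.05 in C1+14 were not called, and the sign in C1+14 turned under TMM (0.03), quantile (0.14) and total-read scaling (0.17). All 12 pairs of groups taken from different sets were called, and no pair within a set was. The sets were drawn from these same levels, so these calls describe the gap and are not a separate test of it.

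Mnt (ENSMUSG00000000282, chromosome 11, 74830920 to 74845725, plus strand) codes for a Max partner that opposes Myc. It had 1003 and 1114 normalised reads in mCherry, 546 and 516 in C1+14, and 324 and 277 in C1C3c. It had 152 and 150.1 in C1C3a, 128 and 109.5 in FL, 131 and 96.7 in C1C3b, and 67.0 and 84.2 in C3+14. Apart from FL and C1C3b, no 2 groups overlapped. Against mCherry Mnt fell by 3.80 on the log2 scale in C3+14 (adjusted p 4.64e-09 by limma, SE 0.20), 3.22 in C1C3b, 3.15 in FL, 2.80 in C1C3a and 1.82 in C1C3c (largest limma adjusted p 1.78e-05). In C1+14 the difference was -0.99 with a limma adjusted p of 0.00287, just short of the 2-fold rule, and past it without C1+14 replicate 1 (-1.03) or mCherry replicate 1 (-1.07).

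Mxd1 (ENSMUSG00000001156, chromosome 6, 86647042 to 86669161, minus strand), which codes for the Max partner Mad1, was highest in C1C3b and lowest in FL. It had 276 and 332 normalised reads in C1C3b, 157 and 169 in C1C3c, 191 and 127 in C1C3a, 134 and 160.3 in C3+14, 152 and 139 in C1+14, 97.7 and 102 in mCherry, and 39.8 and 66.7 in FL. C1C3b lay above and FL below all other libraries, and the 4 groups between C1C3b and mCherry overlapped with their neighbours. Mxd1 rose in C1C3b by 1.59 on the log2 scale against mCherry (adjusted p 0.000269 by limma, SE 0.28). The differences of 0.55 in C3+14, 0.64 in C1C3a, 0.70 in C1C3c and 0.54 in C1+14 were not called, and the first 2 turned to -0.23 and -0.27 on scaling to total reads. FL differed by -0.94 (limma adjusted p 0.00988), short of 2-fold, and passed it without FL replicate 2 (-1.31) and under TMM (-1.10), quantile (-1.29) and total-read scaling (-1.95) and by edgeR (-1.05).

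Mxd4 (ENSMUSG00000037235, chromosome 5, 34173883 to 34187720, minus strand), which codes for another Mad protein, was split in direction between constructs. It had 129 and 183 normalised reads in C1C3b, 176 and 130.2 in C1+14, and 134 and 124 in C1C3c, against 61.4 and 67.8 in mCherry. It had 60.9 and 32.6 in C1C3a, 40.2 and 42.1 in C3+14, and 38.3 and 25.0 in FL. The first 3 groups lay above mCherry and the last 3 below it, with no overlap. Mxd4 rose by 1.24 on the log2 scale in C1C3b (adjusted p 0.00742 by limma, SE 0.35) and by 1.22 in C1+14 (0.0172), and fell by 1.03 in FL (0.0199). These calls are near the threshold. The call in C1C3b was lost under quantile normalisation (log2 difference 0.92) and without C1C3b replicate 2 (log2 difference 0.99). That in C1+14 was lost under quantile normalisation (log2 difference 0.91) and without C1+14 replicate 1 or either mCherry library (limma adjusted p 0.114, 0.102 and 0.0675), and that in FL without FL replicate 2 or either mCherry library (0.128, 0.0585 and 0.0944), with only the 2 groups fitted (0.0662), with a pseudocount of 8 (-0.89) and with factors from protein-coding genes (-0.88). In C1C3c the difference of 0.99 was just short of 2-fold (limma adjusted p 0.0330), and it was called as a rise by edgeR (1.05, adjusted p 0.0164) and DESeq2 (1.004, 0.0130), under TMM (1.04) and total-read scaling (1.19), with factors from protein-coding genes (1.05) and with a pseudocount of 0.1 (1.002). Between C1C3b and C1C3a, which differ in the labels by 1 letter, Mxd4 was higher in C1C3b by 1.76 on the log2 scale (adjusted p 0.000870 by limma, SE 0.35). In C3+14 and C1C3a the differences of -0.64 and -0.52 were not called, but were called as falls under quantile normalisation (-1.27 and -1.17) and on total reads (-1.41 and -1.42).

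Mxd3 (ENSMUSG00000021485, chromosome 13, 55325168 to 55329823, minus strand), which codes for the Mad3 protein, had 133 and 128 normalised reads in mCherry, 70.9 and 78.1 in C1+14, and 64.8 and 59.5 in FL. It had 56.5 and 19.8 in C1C3a, 39.95 and 16.9 in C1C3c, 30.2 and 25.9 in C3+14, and 13.2 and 10.3 in C1C3b. Both mCherry libraries were above all others. Mxd3 fell by 3.37 on the log2 scale in C1C3b (adjusted p 5.46e-05 by limma, SE 0.48), 2.28 in C1C3c (0.00197), 2.18 in C3+14 (0.00151) and 1.92 in C1C3a (0.00358), and the last call was lost without C1C3a replicate 2 (0.0542). The differences of -1.06 in FL (limma adjusted p 0.0745) and -0.80 in C1+14 (limma adjusted p 0.238) were not called, although that in FL was by edgeR (0.0262), under TMM (0.0467), quantile (0.0380) and total-read scaling (0.00287) and with only the 2 groups fitted (0.0157). Of its exon bases 4.43% lie opposite exons of Prelid1, which had between 3215 and 6536 normalised reads in the chimera table. Whether reads were counted by strand is not given in the sources used here, so the level of Mxd3 is uncertain. Of the other 7 members, Mxd4 shares 5.39% of its 50-base stretches with other genes, mostly with its antisense gene Gm42846, which had 0 reads in each library of the chimera table. Max shares 0.0276%, and the remaining 5 share 0%.

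**Figure D1:**
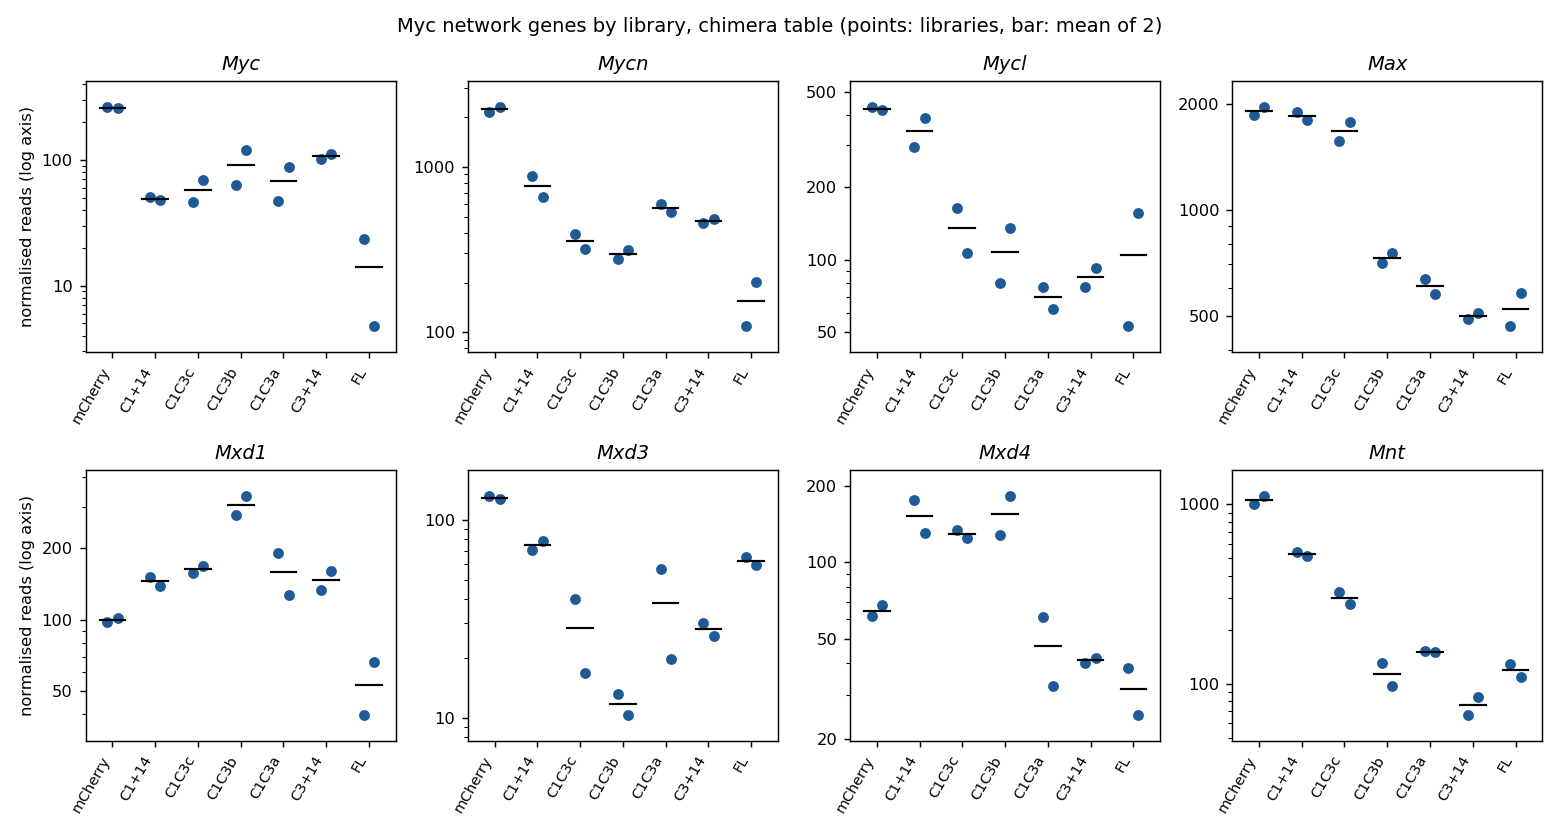
Normalised reads (log axis) of the 8 Myc network genes in the 14 libraries of the chimera table. Each point is a library and each bar a group mean of 2, with groups on the horizontal axis; Max falls into a set of groups at 1563 or more and a set at 752 or less, and Mycn is highest in the mCherry libraries, at 2158 and 2290.4.

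Read across constructs, the number of members called lower than in mCherry was 6 of 8 in FL, where 19.6% of all 21584 genes tested were called lower (44.2% called in either direction). It was 5 in C3+14 (17.7% of all genes lower, 29.6% higher, 47.3% called), 6 in C1C3a (19.0% lower, 27.4% higher, 46.4% called), 6 in C1C3b (17.1% lower, 44.7% called), 5 in C1C3c (10.5% lower, 28.8% called) and 2 in C1+14 (5.95% lower, 18.3% called). Members called higher were Mxd1 and Mxd4 in C1C3b (27.6% of all genes higher) and Mxd4 in C1+14 (12.4% higher). The 8 members had a median log2 difference of -0.56 in C1+14, -1.74 in C1C3c, -1.79 in C1C3b, -1.95 in C1C3a, -2.05 in C3+14 and -2.04 in FL, and all genes tested had one of 0, 0.01, 0.15, 0.12, 0.23 and 0.09 in the same order. Libraries did not overlap with mCherry for 8 of 8 members in 5 constructs (between 76.7% and 86.8% of all genes) and for 7 in C1+14 (69.2%), where Max overlapped. These 6 comparisons share the mCherry libraries. Over all 7 groups, 8 of 8 members differed in the limma F test (89.9% of all genes).

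**Figure D2:**
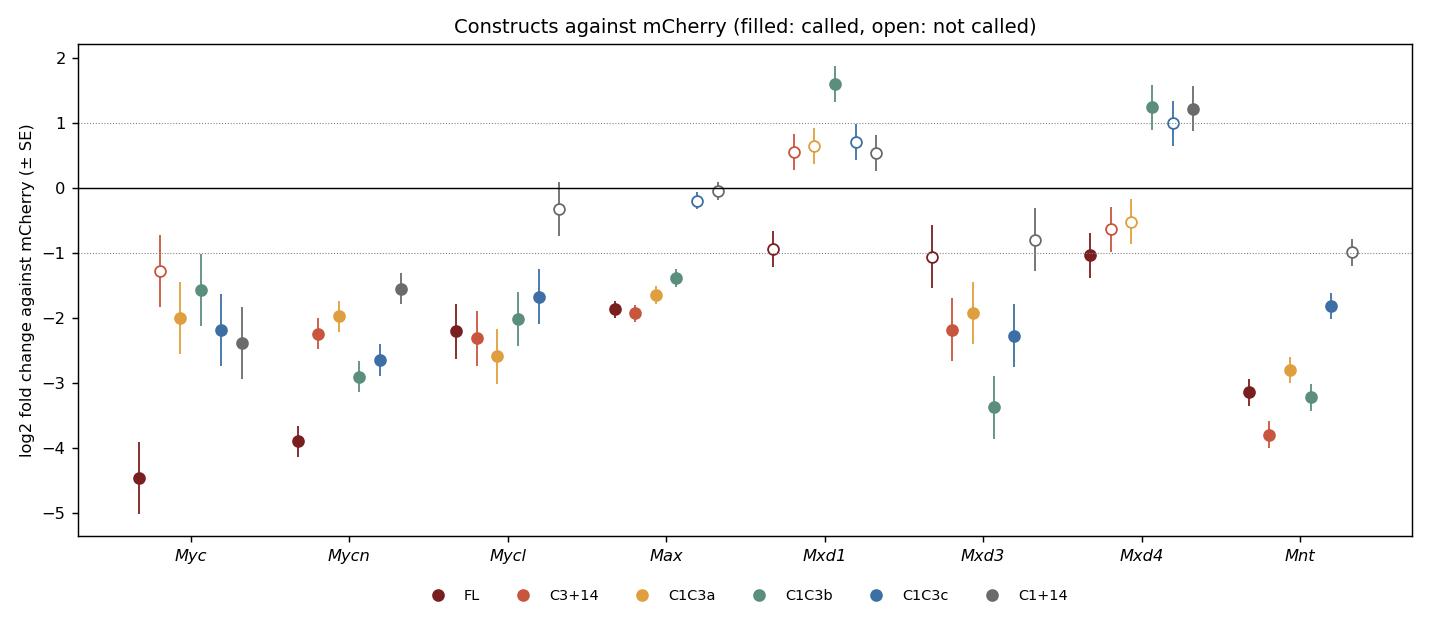
Log2 fold change against mCherry (vertical axis, bars ± SE) of each member in the constructs of the chimera table, with called differences filled and others open. Myc and Mycn in FL lie lowest, at -4.46 and -3.90, and the filled points above 0 are Mxd1 in C1C3b and Mxd4 in C1C3b and C1+14.

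The 3 C1C3 chimeras were set against C1+14, since their names combine C1 and C3. In C1C3a 4 members were called, all lower (40.8% of all genes called, 17.3% lower and 23.4% higher): Mycl by 2.27 on the log2 scale, Mnt by 1.81, Mxd4 by 1.74 and Max by 1.60 (largest limma adjusted p 0.000825). In C1C3b 6 were called (28.9% of all genes, 17.9% higher): Mxd3 fell by 2.57, Mnt by 2.23, Mycl by 1.69, Mycn by 1.35 and Max by 1.34, and Mxd1 rose by 1.05 (largest limma adjusted p 0.00753). The Mycl call there was lost without C1C3b replicate 1 (limma adjusted p 0.0644), and that of Mxd1 without C1C3b replicate 2 (0.0628), without C1+14 replicate 2 (log2 difference 0.99), under TMM (0.94), by edgeR (0.95) and on total reads (0.74). In C1C3c 2 were called, both lower (7.83% of all genes called, 2.46% lower and 5.37% higher): Mycl by 1.35 (limma adjusted p 0.0476) and Mycn by 1.09 (0.0104). Without C1C3c replicate 2 or C1+14 replicate 1, or with only the 2 groups fitted, neither was called, and without C1+14 replicate 2 Mycn alone was. Myc was not called against C1+14 in any of the 3 chimeras, with log2 differences of 0.39, 0.81 and 0.20 in C1C3a, C1C3b and C1C3c.

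Between C1C3b and C1C3a 2 members were called (35.6% of all genes). Mxd4 was higher in C1C3b, as given above. Mxd3 was lower by 1.45 on the log2 scale (adjusted p 0.0218 by limma, SE 0.48), and this was lost without C1C3a replicate 1 (0.243) or C1C3b replicate 2 (0.107) and with only the 2 groups fitted (0.102). On total reads it shrank to -0.67 (limma adjusted p 0.282), and 4 members were then called higher and 0 lower. On that scaling 9911 of all 21584 genes were called, and the median log2 difference of all genes was 0.71. Mycn (-0.93, limma adjusted p 0.00555) and Mxd1 (0.95, 0.0108) differed by less than 2-fold.

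Between C3+14 and FL 3 members were called, all higher (26.3% of all genes called, 16.8% higher and 9.54% lower). Myc was higher by 3.18 on the log2 scale (adjusted p 0.000601 by limma, SE 0.55), Mycn by 1.66 (SE 0.24, 0.000156) and Mxd1 by 1.49 (SE 0.28, 0.000943). Max (-0.06) and Mycl (-0.11) overlapped between these groups, and Mnt differed by -0.65 (limma adjusted p 0.0221), short of 2-fold.

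In the deletion table the members were read in FL, C12345delt14, deltC12345+14 and deltC12345delt14, to ask what the parts written C12345 and 14 contribute. FL here has the same reads as above on another scaling. The summed 2-cell-like markers were between 907010 and 1666710 in FL, 346033 and 546813 in C12345delt14, 0 in deltC12345+14 and at most 3.28 in deltC12345delt14. The summed embryonic stem cell markers were between 42621 and 57116 in FL, 58616 and 76301 in C12345delt14, 79054.5 and 104022 in deltC12345+14 and 87266 and 90292 in deltC12345delt14. Over the 8 libraries the summed markers ran from 113 to 181 for primitive endoderm, 519 to 1114 for trophectoderm, 37.7 to 119 for fibroblasts and 1113 to 3133 for neural cells. The part of these markers in the differences below was not tested. Mycn had 134 and 252 normalised reads in FL, 471 and 935 in C12345delt14, 2227 and 1615 in deltC12345+14 and 2142 and 2541 in deltC12345delt14. Mnt had 158 and 137, 210.3 and 481, 1069.5 and 1014, and 1149 and 1652 in the same order. For both genes C12345delt14 lay between FL and the deltC12345 constructs without overlap. Mycl had 65.2 and 195.1, 145 and 168, 616 and 773, and 760.1 and 611 in that order. Max had 574 and 727, 606 and 907, 1364 and 1796, and 1526 and 1601. For Mycl and Max FL and C12345delt14 overlapped, and both lay below both deltC12345 constructs. Libraries of C12345delt14 and FL did not overlap for 3 of 8 members and for 56.3% of all genes. Those of C12345delt14 and deltC12345delt14 did not overlap for 8 of 8 members and for 75.3% of all genes.

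Against FL, 5 members were higher in deltC12345+14 (38.4% of all 19833 genes tested called, 18.4% higher) and in deltC12345delt14 (39.1% called, 18.8% higher), and they were Mycn, Mnt, Mycl, Max and Mxd3 in both. Mycn rose by 3.36 on the log2 scale in deltC12345+14 and 3.66 in deltC12345delt14 (adjusted p 0.000435 and 0.000261 by limma, SE 0.39), Mnt by 2.82 and 3.22 (SE 0.37), Mycl by 2.60 and 2.58 (SE 0.45), Max by 1.28 and 1.27 (SE 0.24) and Mxd3 by 1.14 and 1.51 (adjusted p 0.0141 and 0.00412 by limma, SE 0.30). The Mxd3 call in deltC12345+14 was lost without replicate 1 of that group (0.0721). Mxd3 had 79.7 and 74.4 normalised reads in FL, 88.0 and 139 in C12345delt14, 188 and 156 in deltC12345+14, and 215 and 229 in deltC12345delt14, with no overlap between any 2 groups. Of all genes, 78.5% did not overlap between deltC12345+14 and FL, and 79.1% did not between deltC12345delt14 and FL. Between deltC12345+14 and deltC12345delt14 the share was 31.7%.

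Against deltC12345delt14, C12345delt14 was lower for 4 members (22.0% of all genes called, 9.40% lower): Mycl by 2.12 on the log2 scale, Mnt by 2.11, Mycn by 1.81 and Max by 1.08 (limma adjusted p between 0.00513 and 0.0129). Of these only Mnt was called without C12345delt14 replicate 1, where the adjusted p was 0.102 for Mycl, 0.1004 for Mycn and 0.0961 for Max. The calls of Mycn and Max were also lost without deltC12345delt14 replicate 2 (0.0529 and 0.0564), that of Max with factors from protein-coding genes (log2 difference -0.97), and that of Mycl without deltC12345delt14 replicate 1 (0.0586). C12345delt14 differed from FL at 0 members by limma (0.958% of all genes called, 0.338% higher). The members with an unadjusted limma p under 0.05 were Mycn (log2 difference 1.85, limma adjusted p 0.0635) and Mnt (1.11, 0.123). The share of all genes at that level was not counted, so it is not a result about the members. edgeR called 1 member, with 467 of all 19833 genes called, and DESeq2 called 2, with 1292 of all genes called. Between deltC12345+14 and deltC12345delt14 limma called 0 members (0% of all genes), and 0 had an unadjusted p under 0.05, while edgeR and DESeq2 also called 0 members. The log2 differences ran from -0.40 for Mnt to 0.50 for Myc. The difference between the effect of removing 14 with and without C12345, a test added after the data were seen, was 1.55 for Mycn (adjusted p 0.320 by limma, SE 0.55), and of 19833 genes 0 passed by limma after adjustment, while 2748 had an unadjusted p under 0.05. Replicate 1 of deltC12345+14 and replicate 2 of deltC12345delt14 had 6.93% and 7.11% of their reads in processed pseudogenes, beside 4.53% and 4.68% in the other replicate of each group and 7.15% to 8.28% in the FL and C12345delt14 libraries. Without both, a setting chosen after the data were seen, the calls of Mxd3 in deltC12345+14 against FL (limma adjusted p 0.0972) and of Max in C12345delt14 against deltC12345delt14 (0.0508) were lost.

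**Figure D3:**
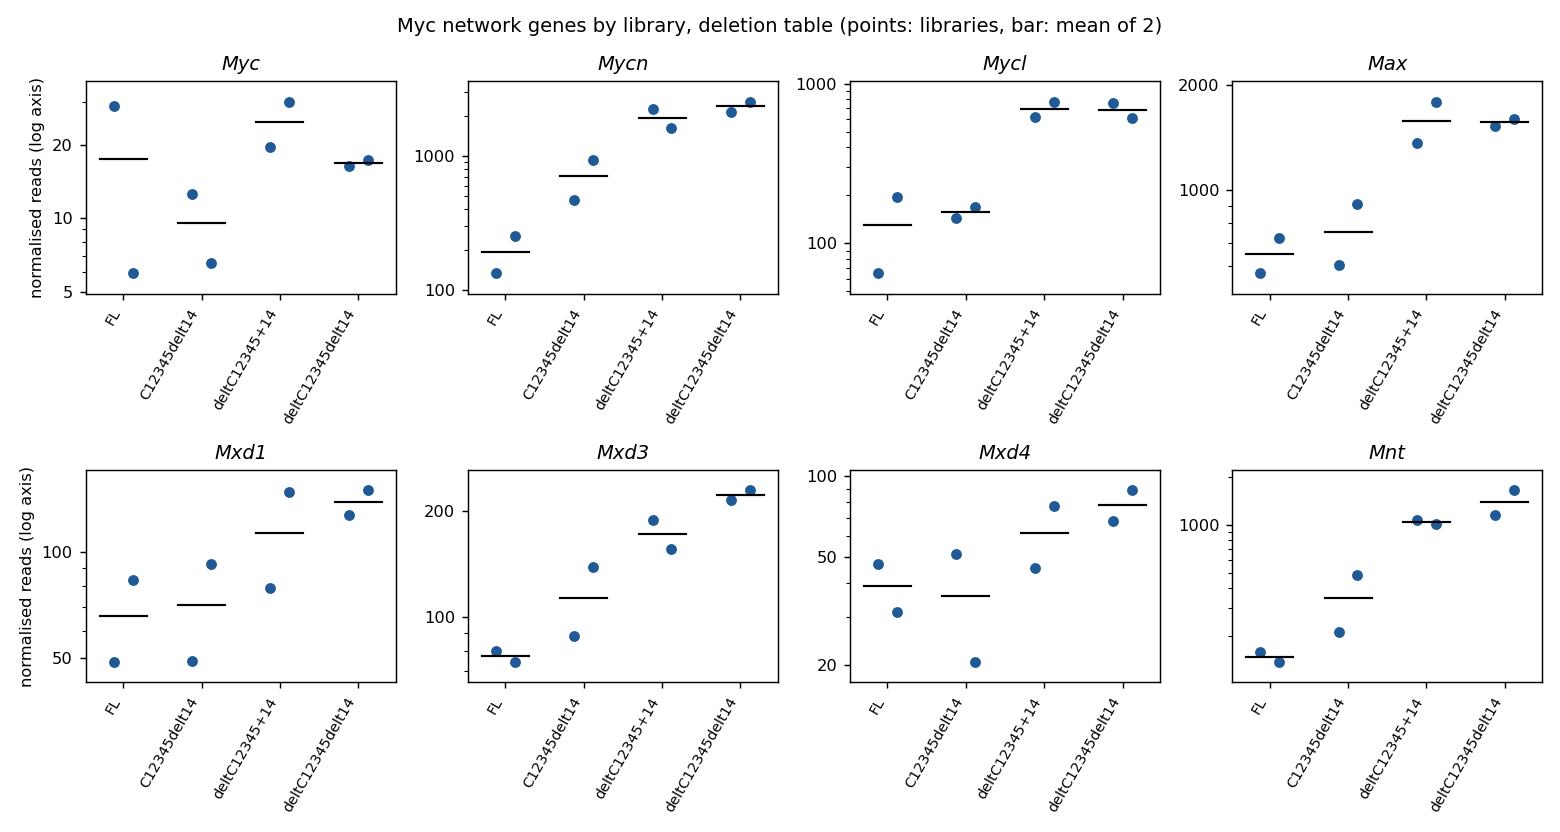
Normalised reads (log axis) of the 8 members in the 8 libraries of the deletion table, each point a library and each bar a group mean of 2. Mycn, Mycl, Max and Mnt are high in both deltC12345 constructs, while Myc lies between 5.96 and 30.2 in all 8 libraries.

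Myc, Mxd1 and Mxd4 did not pass the limma F test over the 4 groups, which 5 of 8 members passed (49.6% of all genes). Mxd1 had 48.9 and 83.4 normalised reads in FL, 49.2 and 92.7 in C12345delt14, 79.2 and 148 in deltC12345+14, and 127 and 150.0 in deltC12345delt14, and Mxd4 was between 20.5 and 88.7 over the table. Myc had 29.0 and 5.96 in FL, 12.6 and 6.56 in C12345delt14, 19.6 and 30.2 in deltC12345+14, and 16.4 and 17.4 in deltC12345delt14, with between 4 and 42 reads a library.

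Set on the scale of RPM, the reads of a gene scaled to an equal total in each library without the separate size factors, Myc and Mycn parted in the deltC12345 constructs. Mycn was at 96.8 and 73.5 RPM in deltC12345+14 and 95.5 and 106 in deltC12345delt14, beside 105 and 111 in mCherry, 49.8 and 37.0 in C1+14 and 2.30 and 5.38 in FL. Myc was at 0.853 and 1.37 RPM in deltC12345+14 and 0.732 and 0.728 in deltC12345delt14. It was at 12.8 and 12.6 in mCherry, 2.87 and 2.69 in C1+14 and 0.497 and 0.127 in FL. Over the 6 constructs with DUX parts in the chimera table Myc ran from 0.127 to 5.46 RPM, so the 2 mCherry libraries had the highest Myc of all 20. In the 4 libraries of the deltC12345 constructs Mycl was between 25.5 and 35.2 RPM, above the 20.3 and 20.9 of mCherry, and Mnt between 46.2 and 69.1, spanning the 48.7 and 54.2 of mCherry. These values cross the tables and were not tested. The mCherry libraries are only in the chimera table and the deltC12345 libraries only in the deletion table. A difference between constructs therefore cannot be told apart from one between the tables. RPM also carries the shift of all genes on total reads. In FL against mCherry the median log2 difference of all genes was -0.87 on total reads and 0.09 on the deposited scaling.

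**Figure D4:**
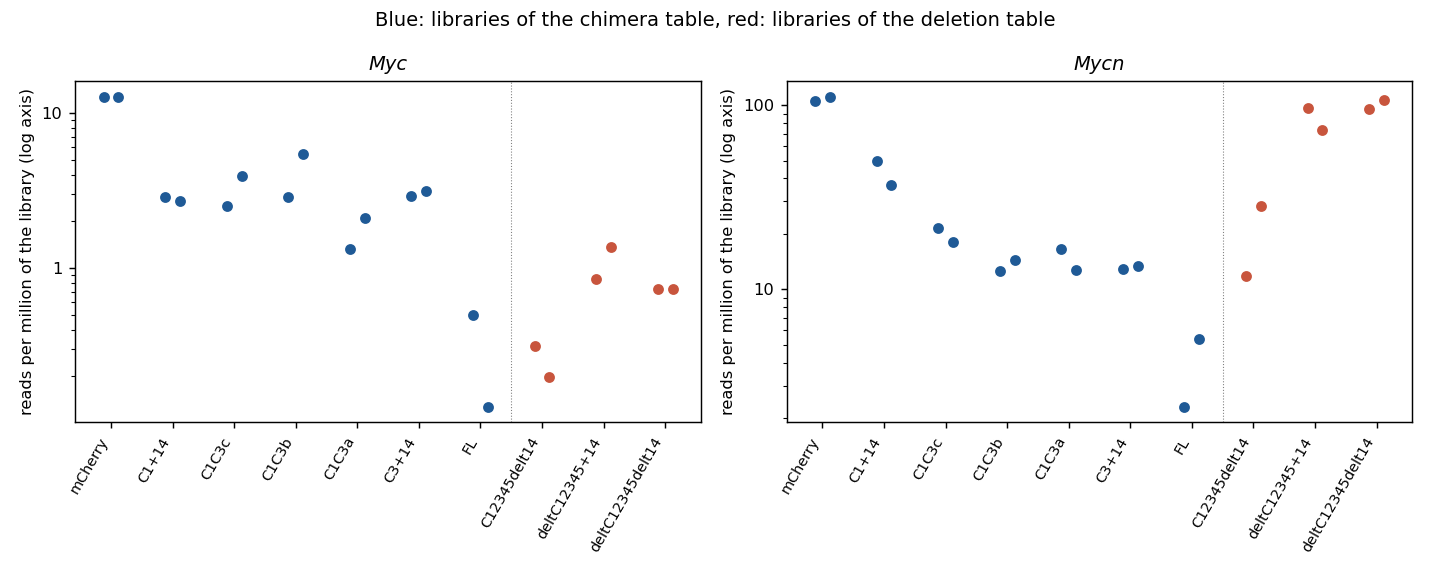
Myc and Mycn in RPM (log axis) in all 20 libraries, blue for the chimera table and red for the deletion table, each point a library. In deltC12345+14 and deltC12345delt14 Mycn is between 73.5 and 106 and Myc between 0.728 and 1.37, whereas mCherry has 105 and 111 of Mycn and 12.6 and 12.8 of Myc. The mCherry and deltC12345 libraries are in different tables, and this contrast was not tested.

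Levels of different genes were compared as normalised reads per kilobase of merged exons. In mCherry the order was Mycn (655 and 695), Max (517 and 543), Mnt (217 and 241), Mycl (107 and 103), Myc (96.7 and 95.3), Mxd3 (56.0 and 54.0), Mxd1 (13.8 and 14.4) and Mxd4 (7.23 and 7.99). Mycn thus made up 77.0% ± 1.02 of the summed Myc family level in mCherry, and between 60.2% and 82.2% in the means of the other groups of both tables (SD, n = 2). The summed level of Myc, Mycn and Mycl per kilobase was 876 ± 25.4 in mCherry, 335 ± 30.9 in C1+14, 214 ± 5.71 in C1C3a, 203 ± 10.2 in C3+14, 163 ± 20.5 in C1C3c, 150.3 ± 32.1 in C1C3b and 78.2 ± 32.9 in FL (SD, n = 2). The summed level of Mxd1, Mxd3, Mxd4 and Mnt was 305 ± 16.6 in mCherry, 185 ± 7.58 in C1+14, 115 ± 13.7 in C1C3c, 90.9 ± 4.08 in C1C3b, 76.8 ± 19.9 in C1C3a, 63.2 ± 2.86 in FL and 53.8 ± 4.15 in C3+14. Mxi1, also a Max partner of the Mad kind, is not among the 8 members and was left out of this sum.

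In the chimera table both sums were lower in every construct than in mCherry, and their ratio moved either way. In the deletion table, which is scaled separately and holds no mCherry libraries, the Myc family sum was 97.2 ± 42.0 in FL, 256 ± 102 in C12345delt14, 764 ± 101 in deltC12345+14 and 887 ± 59.7 in deltC12345delt14. The Mxd and Mnt sum was 78.4 ± 2.61, 137 ± 58.3, 321 ± 8.50 and 425 ± 84.8 in the same order (SD, n = 2). In the chimera table the Myc family sum divided by the Mxd and Mnt sum was 2.87 ± 0.0725 in mCherry, 3.77 ± 0.101 in C3+14, 2.87 ± 0.672 in C1C3a, 1.81 ± 0.0930 in C1+14, 1.65 ± 0.279 in C1C3b, 1.41 ± 0.00925 in C1C3c and 1.25 ± 0.577 in FL (SD, n = 2). C3+14 lay above mCherry and C1+14, C1C3b, C1C3c and FL below it by more than the SD of the replicates, and C1C3a did not differ from it beyond that spread. With the length of the longest transcript in place of merged exons the ratio was 3.13 in mCherry and 3.36 in C3+14. Mnt made up 74.9% of the Mxd and Mnt sum in mCherry and 27.2% in C1C3b, where Mxd1 made up 47.2% against 4.63% in mCherry (merged exons). These shares and the ratio rest on a partial set, since Mxi1 was left out. Its mean was 468 normalised reads in mCherry and 207 in C1C3b. How far the shares and the ratio would change with Mxi1 included was not tested.

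The promoter windows of RefSeq (GRCm38.p6, 250 bases before to 50 after a start) were searched for the E-box CACGTG on both strands, since Max pairs bind it. All members but Myc, 7 of 8, matched a window, so the Myc promoter was not searched. An E-box lay in 3 of these 7, those of Max, Mnt and Mxd4, and in 7.15% of all 32851 windows. A palindromic DUX motif, also searched on both strands, lay in 0 of the 7 and in 0.0335% of all windows. In Max the E-box does not lie wholly before the start, so it is not shown. Whether these E-boxes bear on the levels was not tested. For Mnt and Mxd4, where the E-box lies wholly before the start, the stretches that hold it are shown. They are from RefSeq, 5′ to 3′ on the gene's strand, with the E-box in capitals.
Mnt, chr11:74830761-74830846, plus strand: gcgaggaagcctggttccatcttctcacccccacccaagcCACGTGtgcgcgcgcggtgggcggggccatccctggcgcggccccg
Mxd4, chr5:34187884-34187960, minus strand: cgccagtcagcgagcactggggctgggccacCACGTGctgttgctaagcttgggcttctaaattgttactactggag

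Other genes of the network were read from a list of 7, of which 6 were tested and Mycs did not pass the filter on low values. Mlxipl, which codes for the glucose-responsive factor ChREBP, stood at 43.6 ± 0.143 normalised reads in mCherry and was higher in C1C3a (741 ± 233), C3+14 (580.0 ± 16.2) and FL (198 ± 59.6; SD, n = 2). These are log2 rises of 4.02, 3.70 and 2.13 (SE 0.41, largest limma adjusted p 0.000530). Mlxipl was lower by 1.47 in C1C3c and 1.99 in C1+14, from the low level of 43.6 in mCherry. In each of these 2 constructs 1 gene of the list was called lower (10.5% and 5.95% of all genes lower). That number moved over the alternative settings. Mxi1, another Max partner of the Mad kind, fell by 1.68 in C3+14, 1.61 in C1C3a and 1.22 in C1C3b (SE 0.24, largest limma adjusted p 0.000626), and in C1C3b it fell short of 2-fold without replicate 1 (-0.87). Mga, a large Max partner found in a Polycomb-type repressor complex, fell by 1.502 in FL and 1.32 in C1C3a (adjusted p 9.38e-06 and 2.74e-05 by limma, SE 0.18). Bmyc, a shortened Myc relative, fell by 1.14 in C1C3b (adjusted p 0.0134 by limma, SE 0.35). Mlx and Mlxip were called in none of the 6 comparisons with mCherry, with log2 differences from -0.89 to -0.07 and from 0.46 to 0.80.

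Of 32 genes known to be raised by Myc, all tested, those called lower than in mCherry numbered 9 in C1+14 (5.95% of all genes lower), 11 in C1C3c (10.5%), 12 in C1C3b (17.1%), 5 in C1C3a (19.0%), 4 in FL (19.6%) and 4 in C3+14 (17.7%). In C1C3a, FL and C3+14 the list's share was thus below that of all genes. Those called higher were 2 in FL (24.5% of all genes higher), 2 in C1C3a (27.4%) and 0 in the others (12.4% to 29.6%), below the share of all genes in each. The list's median log2 difference was -0.56, -0.84, -0.68, 0.06, 0.19 and -0.06 in that order, beside all-gene medians of 0, 0.01, 0.15, 0.12, 0.09 and 0.23. These counts moved with the scaling. Under quantile normalisation and on total reads the number lower was 11 and 12 in FL, 12 and 13 in C3+14 and 11 and 10 in C1C3a, and 0 were higher in FL and C1C3a. In C1C3a the number lower was 3 without replicate 1 of that group or with factors from protein-coding genes, and the number higher was 1 without mCherry replicate 1 and 0 without C1C3a replicate 2, under TMM and by edgeR. In FL the number higher was 4 without FL replicate 2. The number lower in C1C3c was 6 on total reads or without C1C3c replicate 2, and in C1+14 it was 4 with only its libraries and those of mCherry fitted. Against FL, 7 of the list were lower and 2 higher in deltC12345+14 (3966 of all 19833 genes lower and 18.4% higher) and in deltC12345delt14 (4017 lower and 18.8% higher), with medians of -0.76 and -0.74 beside -0.08 and -0.11 over all genes. The number lower there, for deltC12345+14 and deltC12345delt14 in turn, was 4 and 2 under TMM, 1 and 0 under quantile normalisation, and 0 and 0 on total reads, where 7 were higher in each. It was 2 and 3 without FL replicate 1. In deltC12345delt14 it was also 11 without FL replicate 2, 4 without replicate 2 of that group and 2 by edgeR, and in deltC12345+14 it was 11 with factors from protein-coding genes. Tert, the telomerase reverse transcriptase, stood at 546 ± 15.3 normalised reads in mCherry and fell to 91.8 ± 29.0 in C3+14, 80.1 ± 15.1 in C1C3a, 124 ± 35.4 in FL and 58.3 ± 29.1 in C1C3b (SD, n = 2), by between 2.16 and 3.30 on the log2 scale (largest limma adjusted p 9.60e-05). Tfrc, the transferrin receptor, fell by 2.42 in FL (adjusted p 1.95e-07 by limma, SE 0.19). Bop1, a factor of ribosome assembly, rose by 1.27 in FL and 1.04 in C1C3a (SE 0.17), short of 2-fold at 0.82 and 0.64 under quantile normalisation and at 0.24 and 0.12 on total reads (limma adjusted p 0.144 and 0.446). In C1C3a it was also short of 2-fold under TMM and by edgeR (0.90 in both) and without C1C3a replicate 2 (0.996).

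Of 6 genes known to be held down by Myc, 4 were called lower in FL than in mCherry (19.6% of all genes lower), 1 in C1C3a (19.0%), 1 in C1C3b (17.1%) and 1 in C1C3c (10.5%). Those called higher were 2 in C1C3b (27.6% of all genes higher), 1 in C1C3c (18.3%) and 2 in C1+14 (12.4%). The number higher was 1 in C1C3b without C1C3b replicate 2 or either mCherry library, and 1 in C1+14 without C1+14 replicate 2 or mCherry replicate 1. Without FL replicate 1, or with only FL and mCherry fitted, the number lower in FL was 2. The call in C1C3c, of Gadd45a, was lost without any 1 of the 4 libraries of C1C3c and mCherry, and under each other scaling tried with limma. Cdkn1a, the cell cycle inhibitor p21, stood at 1987 ± 3.65 normalised reads in mCherry and 321 ± 105 in FL (SD, n = 2) and so fell by 2.67 on the log2 scale (adjusted p 3.37e-07 by limma, SE 0.22), whereas in C3+14 it was at 1779 ± 12.3 and not called. Gadd45a, a stress-response gene, fell by 1.42 in C1C3a (adjusted p 0.00723 by limma, SE 0.40), lost without C1C3a replicate 2 (0.0901) or mCherry replicate 1 (0.0636). Cdkn2b, the inhibitor p15, rose by 1.62 in C1C3b (adjusted p 0.00513 by limma, SE 0.43), lost without mCherry replicate 1 (0.0501), and Ndrg2 fell by 1.62 there (SE 0.32, 0.000796). In the deletion series 6 of 6 were higher than in FL in both deltC12345+14 and deltC12345delt14, where 18.4% and 18.8% of all genes were called higher. Without deltC12345+14 replicate 2, or with only deltC12345+14 and FL fitted, 3 of 6 were called in deltC12345+14. Cdkn1a was higher by 2.99 and 3.20, and in C12345delt14 by 2.25 (adjusted p 0.0294 by limma, SE 0.25), where 0 of the list were called on total reads or without FL replicate 1 or either C12345delt14 library.

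Of 14 cofactors of Myc and of Mxd proteins, those called higher than in mCherry were 2 in FL (24.5% of all genes higher), 1 in C3+14 (29.6%), 1 in C1C3a (27.4%) and 0 in the others (12.4% to 27.6%). Those called lower were 3 in C1C3b (17.1% of all genes lower), 2 in C3+14 (17.7%), 1 each in FL (19.6%), C1C3a (19.0%) and C1C3c (10.5%), and 0 in C1+14 (5.95%). Under quantile normalisation and on total reads 0 were higher in any of the 6 constructs, while 3 and 6 were lower in FL and 3 and 5 in C1C3a. Single libraries moved these counts too. Without mCherry replicate 1 the number higher was 1 in FL and 0 in C1C3a, and without FL replicate 2 the number lower in FL was 2. Without C1C3a replicate 1 C1C3a had 2 higher and 0 lower, and without its replicate 2 it had 3 lower. Without C3+14 replicate 1 the number lower in C3+14 was 1, and without C1C3c replicate 2 that in C1C3c was 0. The 2 Sin3 scaffolds, which Mxd proteins and Mnt bind, parted in FL, where Sin3b rose by 1.23 on the log2 scale (adjusted p 3.93e-06 by limma, SE 0.13) and Sin3a fell by 1.12 (SE 0.13, 5.96e-06). In FL Sin3b was short of 2-fold under quantile normalisation (0.82) and on total reads (0.20, limma adjusted p 0.219), and Sin3a with factors from protein-coding genes (-0.96). Wdr5, which helps Myc bind chromatin, fell by 1.14 in C3+14 (adjusted p 0.000149 by limma, SE 0.19), and Ncor1, a corepressor, by 1.06 in C1C3a (SE 0.19, 0.000255), short of 2-fold without C1C3a replicate 1 (-0.87) or with factors from protein-coding genes (-0.89). Of 9 genes that control Myc protein turnover, 1 was lower in each of 5 constructs (5.95% to 19.6% of all genes lower) and 2 in C1C3b (17.1%), and none was higher in any of the 6 (12.4% to 29.6%). The number lower in C1C3c was 2 without C1C3c replicate 1 and 0 without its replicate 2, and that in C1C3b was 1 without C1C3b replicate 1 or mCherry replicate 2. On total reads it was 5 in FL, 3 in C3+14 and 0 in C1C3c and C1+14. Usp36, a deubiquitinase that stabilises c-Myc, fell by 2.09 in C3+14, 1.79 in FL, and 1.10 in both C1C3a and C1C3b (SE 0.14, largest limma adjusted p 1.69e-05). The last pair fell short of 2-fold with factors from protein-coding genes (-0.94 and -0.98).

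**Figure D5:**
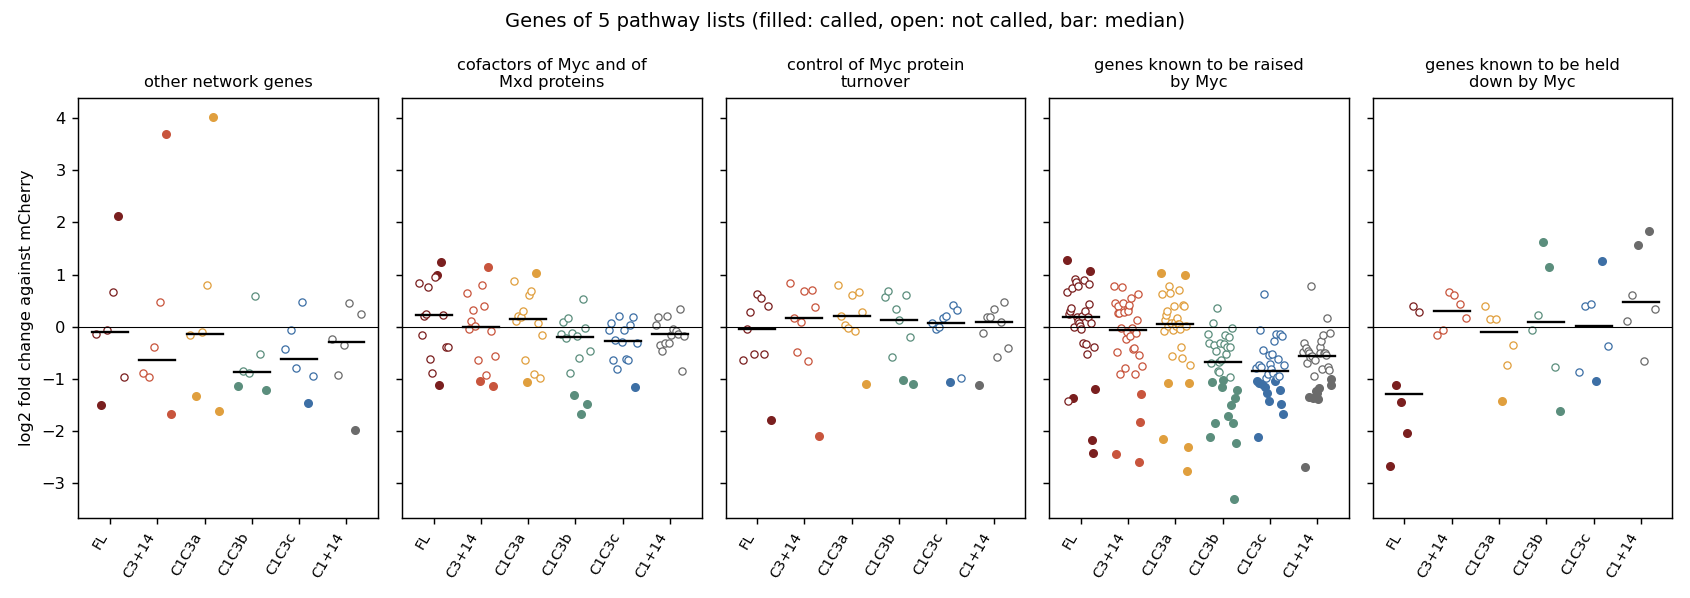
Log2 fold change against mCherry (vertical axis) of the genes in 5 pathway lists in the 6 constructs of the chimera table, with called genes filled, others open and a bar at each median. Among genes known to be raised by Myc the median is -0.68 in C1C3b and -0.84 in C1C3c, against 0.19 in FL.

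Over the 14 libraries of the chimera table, the tested genes most like each of 4 members in level were found by Pearson's r on the log2 scale among 13517 candidates. They are Rbm4b (0.92), Fastkd3 (0.92) and Zbtb11 (0.89) for Myc, and Nr1d1 (0.98), Snhg12 (0.95) and Ptp4a2 (0.95) for Mycn. For Mycl they are Camkk2 (0.98), Rcan3 (0.97) and Prss35 (0.96), and for Mxd3 Shisa7 (0.97), Arap1 (0.97) and Esrp2 (0.96). The libraries share their group differences and scaling, so these values describe likeness of pattern and carry no test.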

How the data were processed

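The deposited values are a signal, namely reads per gene scaled by the authors with 1 factor for each library. The deposited tables are named as normalised counts, and the scaling was read from the values. Of 1220714 values, 1220714 were whole reads once divided by the step of their column (tolerance 0.01 reads). The submitters' processing notes name Trim Galore 0.5.0, FastQC, DESeq2 and the build mm10; the aligner, counter and annotation are not given in the sources used here. Recovered reads were used for RPM and for the count tests. Symbols came from GENCODE M21 (55227 of 55487 identifiers). Genes that reached 10 in no fewer than 2 libraries entered the test, made with limma 3.58.1 (R 4.3.3; lmFit, eBayes with trend) on log2(value + 1), which understates changes of low genes. All groups of a table shared the spread, and p-values were adjusted by Benjamini-Hochberg over all genes. A gene was called at an adjusted p under 0.05 and a log2 difference of at least 1. edgeR 4.0.16 (quasi-likelihood) and DESeq2 1.42.0 on the recovered reads were alternatives, and edgeR called 9502 genes in FL against mCherry where limma called 9531. An exact permutation test of 2 against 2 libraries cannot pass 0.05 and was not used.

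All 8 members are reported. Of the other network genes, all tested ones are described. Genes of the other lists are described at most 4 a list. They had the largest called rise or fall in a comparison with mCherry and a group mean of 50 or more. The members and lists were chosen with earlier results of these data known, and the lists were written from general knowledge.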

Additional observations from a re-analysis of the deposited data

How the results depend on the processing

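Over 13 alternative settings, a crossed replicate block and the leaving out of libraries, 300 counts of members called or differing stayed within 1.5 times and 23 did not. In C1C3c against C1+14 the count went from 2 to 1 with a pseudocount of 0.1, no filter, quantile normalisation, total reads or factors from protein-coding genes, to 0 with only these 2 groups fitted, and between 0 and 3 with 1 library left out. In C1C3b against C1C3a it went from 2 to 1 with only the 2 groups fitted and to 4 by adjusted p alone or on total reads. On total reads it went from 4 to 7 in C1C3a against C1+14, from 5 to 8 in deltC12345+14 against FL, and from 4 to 7 in C12345delt14 against deltC12345delt14, where leaving out 1 library gave 1 to 5. In C12345delt14 against FL it went from 0 to 1 with a pseudocount of 8, quantile normalisation, edgeR or only the 2 groups fitted, to 2 with DESeq2, and between 0 and 2 with 1 library left out. The cause was not tested. Over all genes, limma called 190 in C12345delt14 against FL, and the alternatives gave between 0 (total reads) and 1292 (DESeq2), with 467 by edgeR and 45 with the replicate block. In C1C3c against C1+14 it called 1690, and 0 with only the 2 groups fitted. On total reads the count went from 7616 to 11672 in deltC12345+14 against FL and from 4365 to 6985 in C12345delt14 against deltC12345delt14. It also went from 8799 to 12160 in C1C3a against C1+14 and from 7683 to 9911 in C1C3b against C1C3a. In deltC12345+14 against deltC12345delt14 it was 0, and at most 7 (only the 2 groups fitted). By adjusted p alone it went from 6221 to 9643 in C1C3c and from 3953 to 6774 in C1+14 against mCherry, against C1+14 from 1690 to 3094 in C1C3c and in C1C3b from 6242 to 9709, from 5686 to 8811 in C3+14 against FL, and from 7683 to 11664 in C1C3b against C1C3a. Directions that turned were those of Max in C1+14 (from -0.05 to 0.0254 by TMM, 0.0257 by edgeR, 0.14 by quantile and 0.17 on total reads) and, on total reads, of Mxd1 in C3+14 (to -0.23) and C1C3a (to -0.27), none of them called. The scalings to total reads and to protein-coding genes, and leaving out the 2 deltC12345 libraries rich in pseudogene reads, were chosen after seeing the data.

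Replicate numbers are shared between groups, but same-numbered libraries deviated from their group means with correlations between -0.10 and 0.05 over 21 pairs in the chimera table and between -0.57 and 0.14 over 6 in the deletion table, so the number does not pair them. The -0.57 is that of deltC12345+14 and deltC12345delt14, where replicate 1 of each deviated with replicate 2 of the other, and with the crossed numbers as a block, an alternative chosen after seeing the data, limma called 0 genes and 0 members between these groups, as without it. With the replicate block the Mycl call in C1C3c against C1+14 was lost (limma adjusted p 0.0508), and each count of members called stayed within 1.5 times. Myc had 4 to 42 reads in the libraries of the deletion table, which limits the precision of its differences there, and the size of difference that could be detected was not tested.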
